A study of Mus musculus with 4 samples.

Results

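Imprinted genes are transcribed mainly from the copy inherited from 1 parent, and the 40 described here were chosen as a list of well known mouse imprinted genes. All 40 were found by symbol among the 21690 features of the deposited tables, and they fall into 17 domains or single loci by position. Expression was measured by RNA sequencing in neural precursors made from the A2lox mouse embryonic stem cell line, which carried a doxycycline-inducible knockdown of Geminin (Gmnn), a small nucleoprotein that restrains DNA replication licensing. The cells were differentiated in monolayer culture for 5 days, using the neural medium N2B27. The 3 knockdown libraries, from independent experiments, received 500 ng doxycycline from day 3, and 1 control library of the same line received none, so the groups share the line and the construct. Cells given doxycycline without a knockdown construct were not analysed here, so the drug and the knockdown cannot be told apart. The control's title carries number 1, as does that of knockdown library 1, and whether both came from 1 experiment is not given by these titles. With 1 control library, differences between experiments and the knockdown cannot be told apart either. Before differentiation the stem cells were maintained on mouse embryonic fibroblast feeders, and whether the knockdown line is 1 clone is not given in the sources used here.

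At an imprinted locus, DNA methylation laid down in egg or sperm marks a control region on 1 parental copy and is kept through later cell divisions by maintenance methylation and by the zinc finger protein Zfp57 with its partner Trim28. The marked region then sets which copy of the neighbouring genes is transcribed, often through a long noncoding RNA or an insulator that binds Ctcf. Many paternally expressed genes favour fetal growth and many maternally expressed ones restrain it, and several of both kinds act in neural stem cells and neurons. The values below are the summed RNA of both parental copies, so they say nothing of which copy was transcribed.

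The 3 RefSeq start windows shown here (GRCm38.p6, from 250 bases before to 50 after a start) are those of Zdbf2 and Meg3. Results below turn on both genes, and both lie in domains controlled by methylation of CpG-rich DNA. Slc38a4 and Igf2 also have matched windows and results below, and their windows are not shown. Both Zdbf2 windows are on the plus strand of chromosome 1, at chr1:63200108-63200407 and 72.9 kb further on at chr1:63273019-63273318. The measured Zdbf2 locus (63319843 to 63361149, mm9) is shorter than that distance, so it cannot hold both starts. Which start the measured RNA came from was not tested. The Meg3 window shown is on the plus strand at chr12:109540746-109541045. It was picked as the Meg3 window with the most CpG, and a further Meg3 window at chr12:109545148-109545447 is not shown. Capitals mark each CpG dinucleotide, the site that DNA methylation modifies.
Zdbf2, upstream start: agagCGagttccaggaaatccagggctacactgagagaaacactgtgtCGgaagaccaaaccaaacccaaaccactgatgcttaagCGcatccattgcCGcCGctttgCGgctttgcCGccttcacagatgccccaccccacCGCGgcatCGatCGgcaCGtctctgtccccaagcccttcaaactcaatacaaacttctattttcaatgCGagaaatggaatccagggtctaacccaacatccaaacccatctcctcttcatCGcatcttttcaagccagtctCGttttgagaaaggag
Zdbf2, downstream start: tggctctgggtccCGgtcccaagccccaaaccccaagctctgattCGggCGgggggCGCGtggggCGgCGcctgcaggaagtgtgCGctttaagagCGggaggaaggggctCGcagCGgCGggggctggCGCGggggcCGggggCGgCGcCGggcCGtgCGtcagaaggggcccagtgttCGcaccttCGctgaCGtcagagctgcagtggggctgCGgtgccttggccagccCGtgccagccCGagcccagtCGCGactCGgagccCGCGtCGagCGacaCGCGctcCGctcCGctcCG
Meg3: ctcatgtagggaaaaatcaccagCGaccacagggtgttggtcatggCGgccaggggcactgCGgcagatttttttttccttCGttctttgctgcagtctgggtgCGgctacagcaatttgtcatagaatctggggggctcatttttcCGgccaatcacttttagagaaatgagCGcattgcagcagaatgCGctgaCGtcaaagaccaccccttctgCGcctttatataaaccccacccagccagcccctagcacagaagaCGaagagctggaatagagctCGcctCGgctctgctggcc
The upstream and downstream Zdbf2 windows held 15 and 38 CpG, the Meg3 window shown held 13, and the further Meg3 window held 1. RefSeq windows were matched for 32 of the 40 genes and gave 51 windows, with a median of 12 CpG against 7 over all 32851 windows of that length. The hexamer TGCCGC, the core that Zfp57 is known to bind, was searched on both strands. It occurred 3 times in the upstream Zdbf2 window and 1 time in the Meg3 window shown. Neither the downstream Zdbf2 window nor the further Meg3 window held it, and the Slc38a4 windows lacked it too. The hexamer was found in 11 of the 51 windows (21.6%), from 10 genes, and in 11.6% of all windows. Overlapping Mest windows, starting at chr6:30737800 and chr6:30737803, were both counted. The hexamer itself holds a CpG, and the higher CpG count of these windows was not allowed for, so the shares are a description only. Cdkn1c, Dcn, H19, Impact, Nespas, Peg10, Rtl1 and Sgce were not matched.

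H19, a further gene on which results turn, is the host transcript of the microRNA miR-675, whose 2 mature forms are shown with the seed (bases 2 to 8) in capitals.
mmu-miR-675-5p: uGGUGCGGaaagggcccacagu
mmu-miR-675-3p: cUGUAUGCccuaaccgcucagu
The seeds of the arms differ. The mature forms were not quantified here, so the host transcript is described, and its locus overlaps the Mir675 feature of the tables.

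Each of the 3 deposited tables sets 1 knockdown library against the same control and gives FPKM, which scales fragment counts by transcript length and by library size. The series' own criterion, called the study's rule here, was applied: a gene was called if 2 or 3 of the tables marked it significant (q under 0.05), all marks pointing the same way. Gmnn had 27.0, 65.9 and 27.9 FPKM in knockdown libraries 1 to 3, compared with 113 in the control. Library 2 therefore kept the most Gmnn RNA, 58.4% of the control, against 24.0% and 24.7% in libraries 1 and 3, and it was the library in which Gmnn was not marked. Absolute depth is unknown, and relative to the control it was 1.00, 1.15 and 0.971, from whole-read steps in low features. Summed FPKM of 6 neuronal markers with usable estimates was 149.7, 529 and 267 in libraries 1 to 3, compared with 139.9 in the control. The list is not uniform: Stmn2, which had the highest control level in it, had 75.4, 44.6 and 40.5 FPKM against 66.9 and was marked lower in library 3, whereas the other 5 markers summed to 74.4, 484 and 227 against 72.9. The sum over 7 pluripotency markers was 72.2, 315 and 516 against 51.3. The sum over 6 epithelial markers was 196, 22.0 and 49.2 against 175, that over 12 fibroblast markers 53.0, 65.2 and 105 against 52.0, and that over 10 endoderm markers 96.3, 107 and 122 against 95.7. The 8 neural precursor markers summed to 570, 718 and 586 against 562, and all were expressed. Fap and Lum among the fibroblast markers and Afp and Apoa1 among the endoderm markers were listed at 0 in the control. These lists are not uniform either. Of 8 fibroblast markers with a mean of at least 1 FPKM, 4, 2 and 1 were below the control in libraries 1 to 3. Among them Fbln1, which had the highest control level, had 14.9, 12.7 and 15.6 FPKM against 17.1. Of the 8 neural precursor markers 2, 2 and 3 were below the control. Libraries 2 and 3 thus differed from the control in markers of several cell types. Library 1 differed less and none of these markers was marked there, although its pluripotency sum was also above the control (72.2 against 51.3). The part of cell makeup in the results below was not tested. In such bulk samples fewer cells of a type and less RNA per cell cannot be told apart.

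By the study's rule Peg10, Zdbf2 and Impact fell and H19 rose. Of the 40 genes 36 had usable tests in at least 2 tables, so 3 of 36 were lower (8.33%) against 0.905% of all callable features, and 1 of 36 was higher (2.78%) against 1.98%. The list was chosen with earlier results of these data known, Peg10 among them, so these shares carry no test. The other 36 genes were not called. A total of 15 genes were marked in at least 1 table and 25 in none. Library 2 supplied most marks: 12 of 36 tested genes (33.3%) were marked there, against 5.24% of all features tested in that table. In library 1 the share was 5 of 38 (13.2%) against 2.43%, and in library 3 it was 4 of 35 (11.4%) against 4.62%. The shares over all features were not matched for level. The 40 genes had a median of 16.9 FPKM in the control, and the part of level in their shares was not tested. By direction, library 1 marked 2 of these genes higher (0.909% of all features) and 3 lower (1.52%). Without the overlapping pair Nnat and Blcap, for which no direction is given below, library 1 marked 1 higher (Kcnq1ot1) and 2 lower (Peg10 and Mest). Library 2 marked 4 higher (3.23%) and 8 lower (2.02%). Library 3 marked 1 higher (3.33%) and 3 lower (1.28%). In library 2 the imprinted genes were marked lower more often than higher, whereas all features were marked higher more often than lower. Of the 8 lower marks 3 (Meg3, Rian and Rtl1) come from 1 domain. Library 2 is a single library, and the one that kept the most Gmnn RNA. Without library 2, or without library 3, only Peg10 was still called, because Zdbf2, Impact and H19 were marked in exactly those libraries. Without library 1 the same 4 genes were called.

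In limma, fitted to log2(FPKM + 1) over 12162 features, 0 of the 32 genes that passed a mean of 1 FPKM were called, and 0 had an unadjusted p under 0.05. Over all features 0.156% were called (0.0247% higher and 0.132% lower), and 1.33% had an unadjusted p under 0.05. The smallest limma p among the imprinted genes belonged to H19 (adjusted p = 0.993). The fit has 2 residual degrees of freedom, both among the knockdown libraries, and takes their spread for that of the single control. The 32 genes include Dcn and Usp29, which were under 1 FPKM in the control and passed through the knockdown libraries. The log2 ratio of the 32 genes had a median of -0.02, -0.03 and 0.18 in libraries 1, 2 and 3, beside -0.02, 0.03 and 0.01 over all features. Most of the difference between the list and all features was therefore in library 3, where 18 genes were above the control and 14 below. Of these 32 genes 19 were marked in no table, and their levels ranged from 64.9% to 123% of the control in library 1, from 48.1% to 279% in library 2 and from 71.4% to 249% in library 3. Among those 19, 3 stayed within 20% of the control in all 3 libraries.

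**Figure D1:**
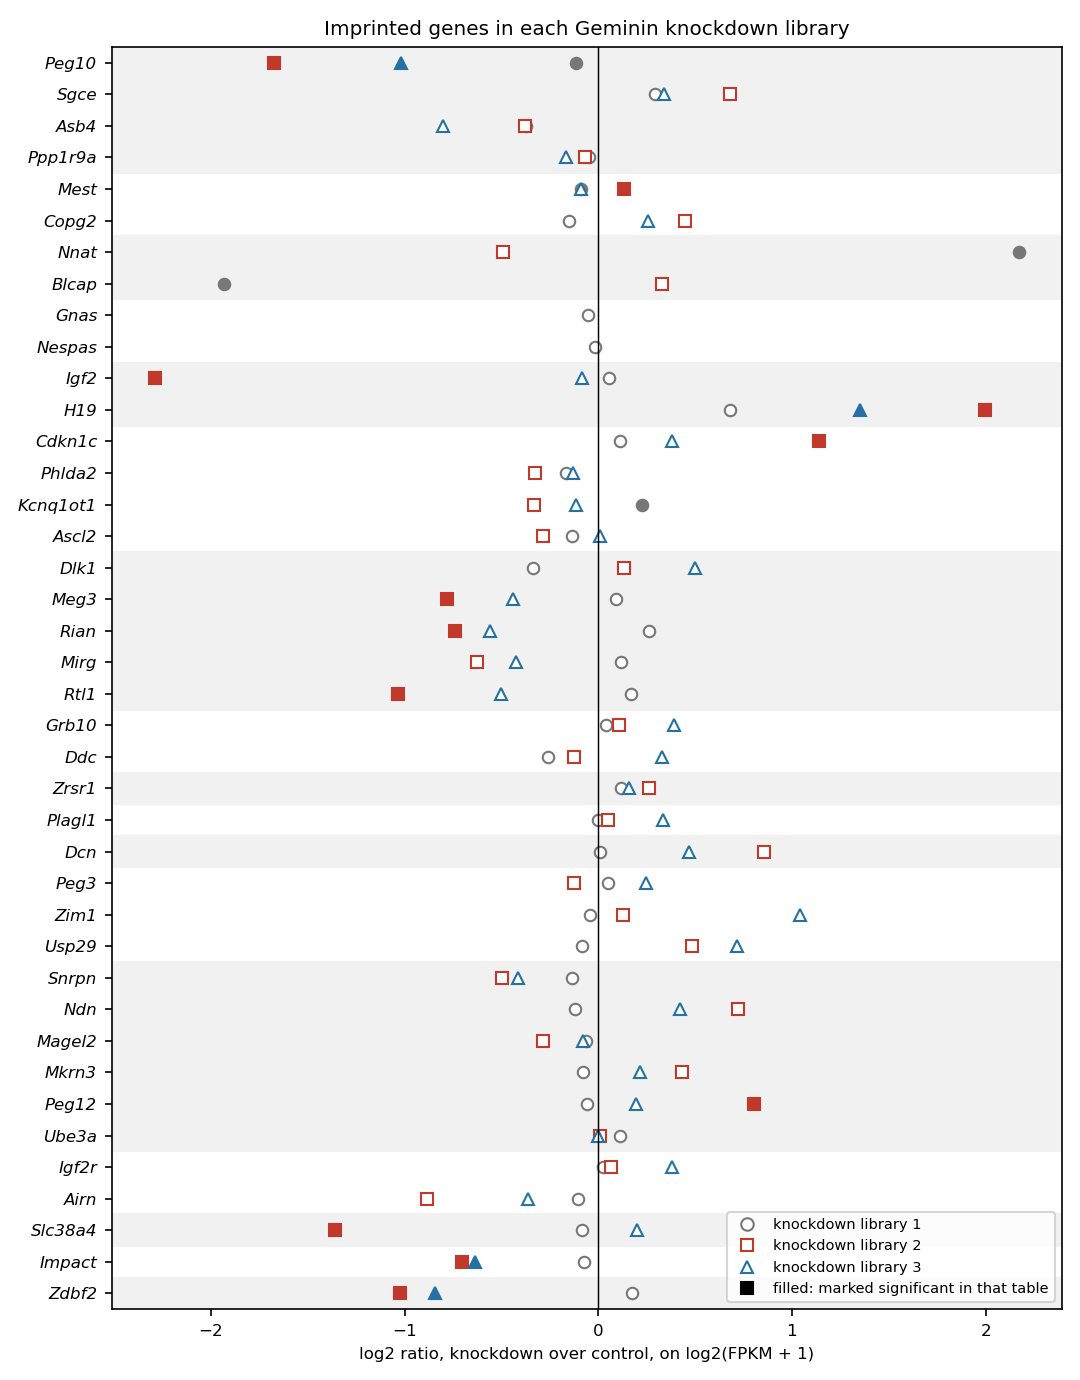
Log2 ratio of knockdown over control on the log2(FPKM + 1) scale (x axis) for each of the 40 imprinted genes (y axis, shaded by domain), with 1 symbol per knockdown library, filled where the deposited table marked the gene significant. Peg10, Zdbf2 and Impact lie left of 0 in libraries 2 and 3, H19 lies right of 0 in all 3, and missing symbols in the Nnat and Gnas domains are failed estimates.

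Levels in the control spanned a wide range. FPKM was over 100 in 7 genes, from 10 to 100 in 16, from 1 to 10 in 11 and under 1 in 6. Mest, which encodes an enzyme of the alpha/beta hydrolase fold, was highest with 638 FPKM, followed by Gnas, the stimulatory G protein alpha subunit, with 612. Peg10, Grb10, Cdkn1c, Peg3 and Rian followed with 251, 241, 144, 116 and 104 FPKM. Asb4, Ascl2, Plagl1, Dcn, Usp29 and Magel2 made up the lowest group. Ascl2, a factor of trophoblast cells, had 0.218 FPKM in the control, and Plagl1, a zinc finger growth regulator, had 0.0909.

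Peg10 is a paternally expressed gene derived from a retrotransposon and is known for its role in the placenta. It had 232, 78.0 and 123 FPKM in knockdown libraries 1 to 3, compared with 251 in the control, all 3 below the control and libraries 2 and 3 far below library 1. As a percentage of the control, the 3 libraries averaged 57.5% ± 31.5 (SD, n = 3). The authors' deposited tables gave it q-values of 2.63e-06 in library 1, 0 (as listed) in library 2 and 4.49e-05 in library 3. It was the 1 imprinted gene marked in all 3 tables. The limma estimate was a log2 difference of -0.94 (standard error 0.63, adjusted p = 0.993).

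Sgce, which encodes the membrane protein epsilon-sarcoglycan, starts beside Peg10 in the opposite orientation, and the annotated genes are 101 bases apart on chromosome 6 (Sgce 4624350 to 4697204 and Peg10 4697306 to 4710516, mm9). It had 24.2, 32.0 and 25.1 FPKM in libraries 1 to 3, compared with 19.6, above the control in each. It was not marked in any table, and the limma estimate was a log2 difference of 0.44 (standard error 0.21, adjusted p = 0.993). The ratio of Peg10 to Sgce was 12.8 in the control and 9.57, 2.44 and 4.91 in libraries 1, 2 and 3. The 2 neighbours therefore lay on opposite sides of the control in all 3 libraries, and the difference between them was not tested. Ppp1r9a, the actin-binding protein neurabin, had 13.7, 13.5 and 12.5 FPKM against 14.2, and Asb4, an ankyrin repeat protein, was at or below 0.347 FPKM in every knockdown library against 0.746. Neither was marked.

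Zdbf2, a paternally expressed zinc finger gene linked to postnatal growth, lies on chromosome 1 from 63319843 to 63361149 (mm9). It had 52.6, 22.3 and 25.4 FPKM in libraries 1 to 3, compared with 46.4 in the control. Library 1 was above the control, and libraries 2 and 3 were at 48.1% and 54.7% of it, so the knockdown libraries lie on both sides of the control. The authors' deposited tables gave q-values of 0.000152 and 0.00267 in libraries 2 and 3. The mean was 33.4 ± 16.7 FPKM (SD, n = 3), and limma gave a log2 difference of -0.56 (standard error 0.53, adjusted p = 0.993).

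Impact, a paternally expressed inhibitor of the amino acid sensing kinase Gcn2, had 74.5, 48.0 and 50.1 FPKM in libraries 1 to 3, compared with 78.6. All 3 were below the control, library 1 by little. Libraries 2 and 3 were at 61.0% and 63.8%, with q-values of 0.0266 and 0.0304 in the authors' deposited tables. At a stricter q under 0.01 Impact and H19 were no longer called, whereas Peg10 and Zdbf2 were.

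**Figure D2:**
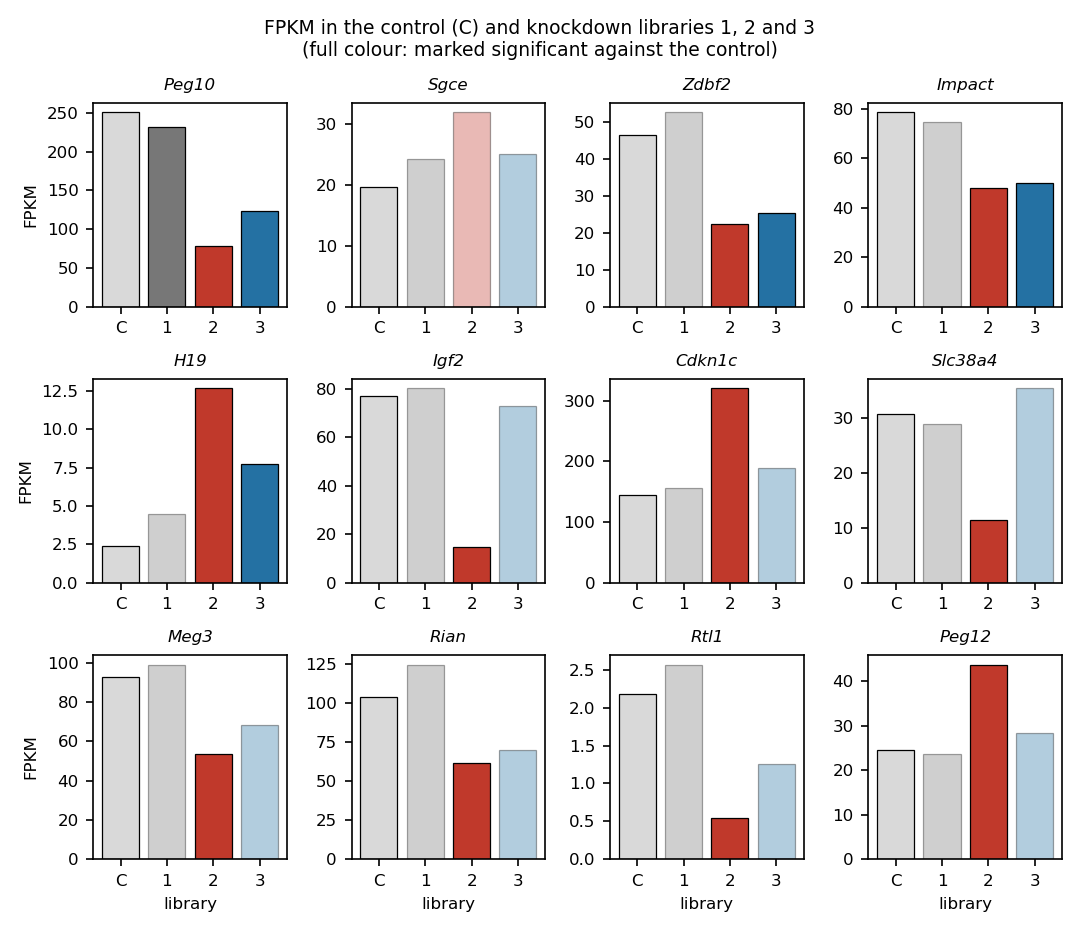
FPKM (y axis, from 0) of 12 imprinted genes in the control (C) and in knockdown libraries 1, 2 and 3 (x axis), each bar being 1 library with no replicate, in full colour where marked significant against the control. Peg10, Zdbf2 and Impact are low in libraries 2 and 3, H19 is highest in library 2 at 12.6 FPKM, and Igf2 and Slc38a4 are low in library 2 only.

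H19 is a maternally expressed noncoding RNA that shares enhancers and a control region with Igf2, the paternally expressed fetal growth factor. The genes lie on chromosome 7 (H19 149761437 to 149764051 and Igf2 149836673 to 149856261, mm9), 72.6 kb apart. H19 had 4.48, 12.6 and 7.72 FPKM in libraries 1 to 3, compared with 2.41 in the control, so it was above the control in each and highest in library 2. Its mean was 8.28 ± 4.11 FPKM (SD, n = 3), and limma gave a log2 difference of 1.34 (standard error 0.55, adjusted p = 0.993). In the authors' deposited tables q was 0.0761, 7.66e-05 and 0.0207.

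Igf2 had 80.1, 15.0 and 72.7 FPKM in the same libraries against 77.1. It was at 19.4% of the control in library 2, with a q-value listed as 0 in the authors' deposited table, and at 104% and 94.3% in libraries 1 and 3. The ratio of H19 to Igf2 was 0.0313 in the control and 0.0559, 0.845 and 0.106 in libraries 1, 2 and 3. Library 2 thus stood apart from the other two in Igf2, whereas H19 was above the control also where Igf2 was near it.

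Next to this pair on chromosome 7 lies the domain of Kcnq1ot1, a paternal noncoding RNA that silences its neighbours. Cdkn1c, the cyclin-dependent kinase inhibitor p57 that slows the cycle of progenitors, had 156, 320 and 188 FPKM in libraries 1 to 3, compared with 144. All 3 were above the control, and only library 2 was marked, with a q-value of 9.36e-08 in the authors' deposited table. Kcnq1ot1 itself had 1.66, 0.808 and 1.10 FPKM against 1.28 and was marked higher in library 1 only. Phlda2, a restraint on placental growth, had 3.70, 3.22 and 3.82 against 4.28 and was marked in none. Kcnq1ot1 overlaps Kcnq1, and since the strand of the libraries is not given in the sources used here, their reads cannot be told apart.

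In the domain of Dlk1 and Meg3 on chromosome 12, 4 of the 5 genes measured followed 1 pattern across libraries, above the control in library 1 and below it in libraries 2 and 3. The pattern is not particular to this domain, since Zdbf2, Dnmt3b and the epithelial marker Cdh1 also showed it. Its share over all features was not counted. Meg3, a maternally expressed noncoding RNA at 110779206 to 110809938 (mm9), had 99.1, 53.6 and 68.3 FPKM against 93.1. Rian, a noncoding RNA 32.2 kb further on that hosts small nucleolar RNAs, had 125, 61.8 and 70.2 FPKM against 104. Mirg, a host of microRNAs, had 9.22, 5.10 and 6.002 against 8.40.

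Rtl1, a paternally expressed gene of retrotransposon origin, had 2.57, 0.548 and 1.25 FPKM against 2.18. Meg3, Rian and Rtl1 were marked in library 2 only, with q-values of 0.00288, 0.0153 and 0.0274 in the authors' deposited table, and in library 3 their q-values were 0.165, 0.0837 and 0.590. None of the 4 met the study's rule. The ratio of Meg3 to Rian stayed between 0.794 and 0.973 in the knockdown libraries and was 0.896 in the control. Dlk1, a membrane protein related to Notch ligands, had 0.956, 1.72 and 2.49 FPKM against 1.47 and so did not share the order of the other 4. Meg3, Rian, Mirg and Rtl1 all overlap short RNA features at their loci, so their levels are uncertain. Because the strand of the libraries is not given, reads from opposite strands at Rtl1 cannot be told apart.

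**Figure D3:**
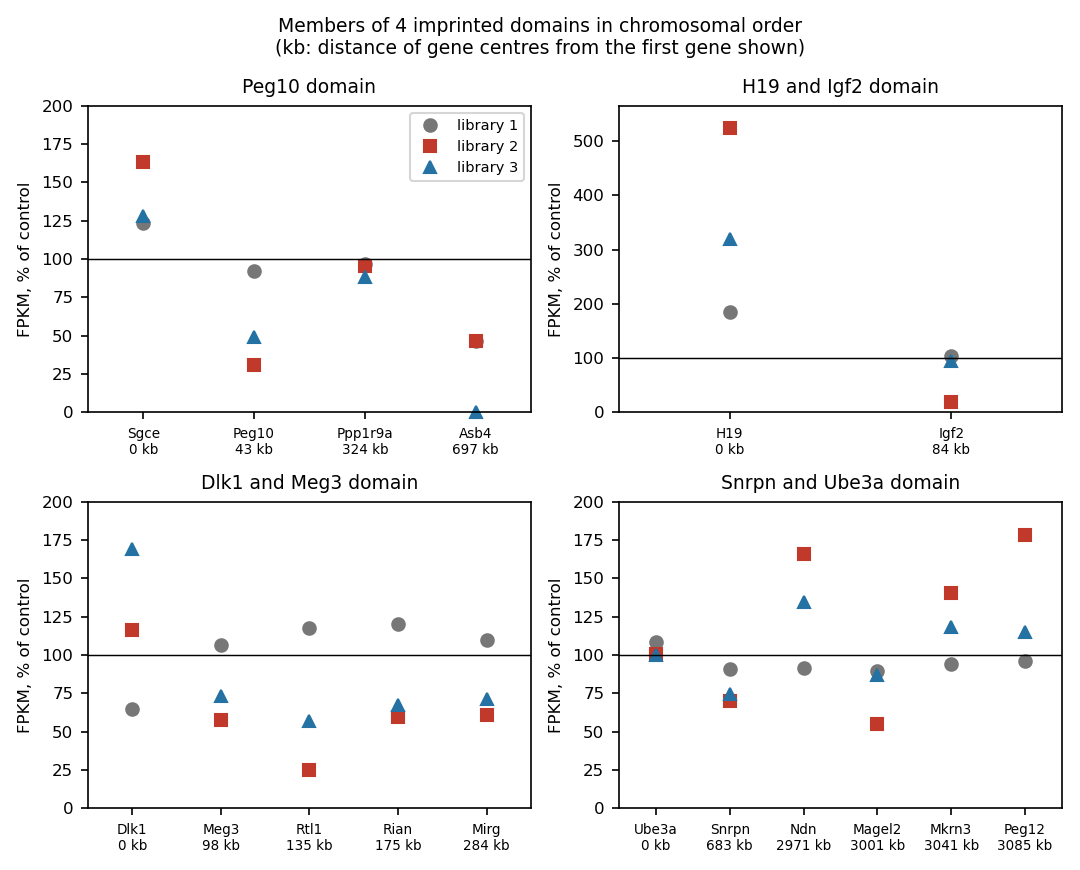
FPKM as a percentage of the control (y axis) for the members of 4 imprinted domains in chromosomal order (x axis, with the distance of each gene's centre from the first gene in kb), 1 symbol per knockdown library and a line at 100. Sgce and Peg10 lie on opposite sides of the line, H19 reaches 524% in library 2, and Meg3, Rtl1, Rian and Mirg lie below the line in libraries 2 and 3 and above it in library 1.

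The domain of Snrpn and Ube3a on chromosome 7 corresponds to the human Prader-Willi and Angelman region. None of its 6 genes was called. Snrpn, which encodes the spliceosome protein SmN, had 45.4, 35.0 and 37.1 FPKM against 49.9, below the control in each library. Peg12 had 23.6, 43.7 and 28.2 FPKM against 24.6 and was marked higher in library 2 (q-value of 0.0323 in the authors' deposited table). Ndn, a protein of the MAGE family that promotes neuronal survival, had 45.3, 81.9 and 66.3 against 49.3, and Mkrn3, a RING finger protein, had 6.58, 9.81 and 8.28 against 6.99. These 3 genes were below the control in library 1 and above it in libraries 2 and 3, and neither Ndn nor Mkrn3 was marked. Ube3a, the ubiquitin ligase of Angelman syndrome, was at 108%, 101% and 100.1% of the control, the narrowest range in this domain. Magel2, a further MAGE gene, was under 1 FPKM in all libraries.

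Of the genes at single loci, Slc38a4, a sodium-coupled amino acid transporter, was low in library 2 alone. It had 29.0, 11.4 and 35.4 FPKM in libraries 1 to 3, compared with 30.8, and the q-value in library 2 was 1.33e-05 in the authors' deposited table. Dcn, which encodes the matrix proteoglycan decorin of fibroblasts, had 0.840, 2.32 and 1.53 FPKM against 0.831 and was not marked, while the fibroblast markers summed to the values given above. Zrsr1, a splicing factor gene inside Commd1, had 7.59, 8.49 and 7.83 against 6.92. Plagl1 stayed under 0.375 FPKM in every library and had a usable test in 1 table only.

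Peg3, a zinc finger protein, had 120, 106 and 138 FPKM against 116 and was not marked. Its neighbours Zim1, a zinc finger gene, and Usp29, a deubiquitinase family gene, reached their highest values in library 3. Zim1 had 2.36, 2.78 and 6.12 FPKM against 2.46, with a q-value of 0.0838 in library 3 in the authors' deposited table. Usp29 had 0.859, 1.76 and 2.24 against 0.969. Grb10, an adaptor that restrains insulin and growth factor signalling, had 248, 260 and 317 against 241, and Ddc, which makes dopamine, had 1.20, 1.42 and 2.30 against 1.63. None of these 5 genes was marked in any table.

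Igf2r, the receptor that clears Igf2, had 32.8, 33.9 and 42.3 FPKM against 32.3. Airn, the antisense noncoding RNA that silences Igf2r on the paternal copy, was at 92.3%, 48.1% and 75.1% of the control of its own table, and neither was marked. For Airn the same control library was quantified at 11.2, 7.68 and 8.93 FPKM in the 3 tables, so its level depends on the table. The 2 genes are listed at 1 shared locus, so their reads cannot be told apart by position alone.

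In 3 further domains with overlapping genes, marks pointed in opposite directions or estimates failed. Mest had 601, 699 and 600.1 FPKM against 638 and was marked lower in library 1 and higher in library 2, so it was not called. In libraries 1 and 3 it stood at nearly the same share of the control, 94.1% and 94.0%, yet the q-values in the authors' deposited tables were 0.00344 and 0.310. A mark in library 1 can thus stand for a change of a few percent, which also bears on the mark of Peg10 there (92.3% of the control). Copg2, a coatomer subunit listed at the locus of Mest, had 37.1, 56.6 and 49.3 against 41.2 and was not marked.

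Nnat, a small membrane protein of developing neurons, lies within an intron of Blcap. In library 1 Nnat had 54.4 FPKM against 11.3 and Blcap had 5.91 against 25.4, both marked, in opposite directions. In library 2 Nnat had 11.6 against 16.8 and Blcap 28.5 against 22.5, neither marked. The control itself was given at 11.3 FPKM of Nnat in the first table and 16.8 in the second, and the estimates failed in library 3. How reads were divided between these genes was not tested, and no direction is given for either. Gnas and its antisense transcript Nespas had values in library 1 alone, at 96.5% and 98.6% of the control, and failed in the other tables. In all, 18 of the 40 genes overlap another feature at their locus.

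Grouped by the parental copy they are known to be expressed from, the genes called lower were all paternally expressed and the gene called higher is maternally expressed. Of 20 callable paternally expressed genes 3 fell and 0 rose, and of 12 callable maternally expressed genes 1 rose and 0 fell, beside 0.905% lower and 1.98% higher over all callable features. The maternal count rests on H19 alone, and with 4 calls in all these counts are a description. Median log2 ratios of paternally expressed genes past the level filter were -0.08, -0.23 and 0.04 in libraries 1, 2 and 3 (18 genes), and those of maternally expressed genes were 0.02, 0.06 and 0.26 (11 genes). Both groups held genes above and below the control in every library. Marks in library 2 also ran both ways: maternally expressed Meg3 and Rian were lower and Cdkn1c and H19 higher. Paternally expressed Mest and Peg12 were higher there, and the other paternally expressed genes marked there were lower.

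Within 500 kb of the imprinted genes lay 254 other features, of which 147 were callable. By the study's rule 1 was higher and 2 were lower (2.04% in all, against 2.88% of all callable features). Nrp2, a semaphorin receptor near Zdbf2, had 5.14 and 3.48 FPKM in libraries 1 and 2 against 7.60 and was marked lower in both, whereas Zdbf2 was marked in libraries 2 and 3. In library 3 the table gave Nrp2 too few data for a test. Cobl, an actin nucleator near Grb10, had 1.18, 6.94 and 11.9 FPKM against 1.27 and rose. Mas1, which shares a listed locus with Igf2r and Airn, was listed at 0 in all knockdown libraries and was at 0.204 FPKM or less in the control. No neighbour of Peg10, of H19 and Igf2, or of Impact was called within that distance. In the domain of Dlk1 and Meg3 the 18 neighbours past the level filter had a median log2 ratio of 2.68, 0.00 and 0.01 in libraries 1, 2 and 3, and 0 of them were marked in any table. Of these 18 features 15 are microRNA genes, and 13 of the 18 were listed at 0 in the control, as were 6, 14 and 9 in libraries 1, 2 and 3. Mir540, for example, was listed at 529 FPKM in library 1 and at 0 in the other libraries. The longer neighbours Begain and Wdr25 had log2 ratios of -0.25 and 0.23 in library 1. The high median in library 1, the library in which Meg3, Rian, Mirg and Rtl1 were above the control, thus comes from short RNA features, whose part in the values of those genes was not tested.

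Among 30 factors that set or keep imprints, 26 were callable, and Zfp57 and Tet2 rose and Dnmt3b fell. Thus 2 of 26 were higher, beside 1.98% of all callable features, and 1 of 26 was lower, beside 0.905%. With so few calls these counts are a description. Zfp57, which protects methylation at imprinted control regions, had 36.2, 58.1 and 75.5 FPKM in libraries 1 to 3, compared with 31.3, above the control in each. Tet2, which oxidises methylated cytosine, had 3.23, 6.85 and 9.35 against 3.24. Dnmt3b, a methyltransferase that lays down new methylation, had 45.4, 25.8 and 28.8 against 43.6. All 3 were marked in libraries 2 and 3 and not in library 1, as were Zdbf2, Impact and H19. Of all 417 called features 370 (88.7%) were likewise marked in libraries 2 and 3 and not in library 1. With 1 control library, the experiment and the knockdown cannot be told apart in these calls.

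The most abundant factors of this group were near the control in every library. Trim28, the corepressor that Zfp57 recruits, had 232, 225 and 259 FPKM against 240, and Uhrf1, which brings the maintenance methyltransferase to replicated DNA, had 129, 145 and 153 against 141. Dnmt3l, the cofactor of germline methylation, was marked in library 3 only, with 3.97 and 22.5 FPKM in libraries 2 and 3 against 4.17 and too few data in library 1. It was named after its values were seen. Hnrnpk was listed at 0 in all 4 libraries although it is a gene that every cell uses, and the tables give its estimates a failed status. The median log2 ratio of the 25 factors past the level filter was -0.00, 0.06 and 0.11 in libraries 1, 2 and 3. In limma 0 of these 25 were called and 0 had an unadjusted p under 0.05.

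**Figure D4:**
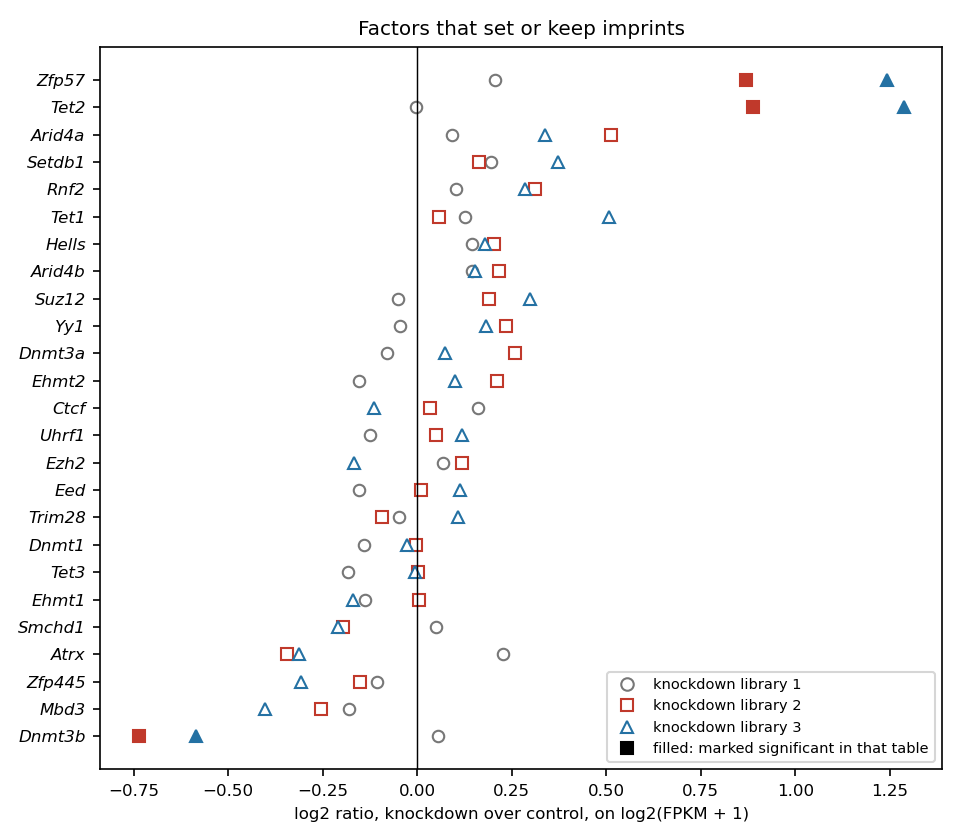
Log2 ratio of knockdown over control on the log2(FPKM + 1) scale (x axis) for 25 factors that set or keep imprints (y axis, ordered by their mean), 1 symbol per knockdown library, filled where marked significant. Zfp57 and Tet2 lie to the right and Dnmt3b to the left in libraries 2 and 3, and the other factors lie closer to 0.

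A further 46 genes reported as imprinted in mouse were listed beside the 40, and 43 were measured. Of these 28 were callable, 1 rose (Cobl, also described as a neighbour of Grb10) and 1 fell. Over all callable features 1.98% were higher and 0.905% lower. Sfmbt2, a Polycomb-related gene that is paternally expressed, had 11.03, 3.70 and 4.83 FPKM against 9.42, and so was low in libraries 2 and 3 like Zdbf2. Its locus overlaps 19 microRNA features, so its level is uncertain. The most abundant of the list, Nap1l4 and Commd1, had 105, 131 and 120 against 121, and 98.5, 124 and 108 against 111. Neither was marked. In limma 0 of 22 tested genes of this list were called and 0 had an unadjusted p under 0.05.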

How the data were processed

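Per the submitters' processing notes, the authors used TopHat, Cufflinks and Cuffdiff on mm9. Program versions, the gene annotation and the strand of the libraries are not stated there. The deposited values are FPKM, 1 table per knockdown library against the shared control. Each deposited table also holds a Cuffdiff p-value, a q-value (a score here, since it exceeds 1 in places) and a natural log ratio (treated as a score), with the control as numerator, by which directions were checked. Loci were converted to count from 1. Estimates with a failed or low-data status were left out of ratios, counts and tests. Ratios were formed within a table, because the control agreed within 0.1% between tables in only 87.4% to 88.1% of features.

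The authors' marks were counted by the study's rule. Separately, limma 3.58.1 (R 4.3.3, trended prior) was fitted to log2(FPKM + 1) on 12162 features with usable values and a mean of at least 1 FPKM, with Benjamini-Hochberg adjustment over all of them at 0.05. Adding 1 FPKM understates the changes of low genes. The deposited p- and q-values each compare 1 library with 1 library, so they hold no spread between replicate libraries. The 3 tables share the control, so their marks are not independent of each other. Limma p-values rest only on the spread among the knockdown libraries. An exact test of 3 libraries against 1 cannot go below p = 0.25 one-sided. The members, lists and tests were chosen with earlier results of these data known. Named with full values are genes marked in a table and the most abundant gene of each domain, and, of the other lists, called genes and the 2 most abundant. Sequences are RefSeq's (GRCm38.p6) and share no coordinates with the mm9 values. Alternatives were other pseudocounts, filters, q thresholds, centring, control values, neighbour distances and leaving out each library.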

Additional observations from a re-analysis of the deposited data

How the results depend on the processing

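The imprinted genes called lower by the study's rule numbered 3, and 1 (Peg10) when a mark in all 3 tables was required. H19, the 1 called higher, left 0 under that requirement and 0 at q under 0.01. Over all features the counts of 286 higher and 131 lower became 3 and 14 with marks in all 3 tables, and at q under 0.01 161 were higher. Leaving out 1 library, with both other tables then having to mark a feature, gave 1 to 3 imprinted genes lower, 0 to 1 higher, 22 to 120 features lower and 12 to 272 higher. In limma no imprinted gene was called under any alternative run, and without library 1 8 of 32 (25%) had an unadjusted p under 0.05, beside 10.5% of all features. Over all features limma called 3 higher and 16 lower. It called 4 lower with a pseudocount of 0.1 and 226 without a level filter, and 1 to 8 higher and 8 to 32 lower with a library left out. The causes were not tested. The mean over libraries of the median log2 ratio of the imprinted genes was 0.04, and it was 0.05 with a pseudocount of 0.1, -0.02 without a level filter and 0.04 when centred. Without 1 library, a repeat added after seeing the data, it lay between -0.02 and 0.08. The mean log2 ratios of 18 named genes kept their sign with another pseudocount or centring. Without library 2 that of Peg10 went from -0.94 to -0.57, that of Zdbf2 from -0.56 to -0.33, that of Igf2 from -0.77 to -0.01, that of Slc38a4 from -0.41 to 0.06 and that of Kcnq1ot1 from -0.07 to 0.05. The near-zero means of Mest and Peg3 also changed sign when a library was left out. Calls of Zdbf2, Impact and H19 depend on libraries 2 and 3 both being kept. No paired analysis was possible because the groups share 1 replicate number and the control has 1 library.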
